A study of Mus musculus with 20 samples.

Results

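Ly6a+ Mo-MF were a part of the macrophages with Ly6a transcripts in cultures of bone marrow monocytes exposed to breast cancer products. They were picked by a rule on corrected counts, the units of the deposited table (transcripts per cell after removal of the effect of depth). The gate kept cells with S100a8 and S100a9 below 50 together, no Csf3r (the G-CSF receptor of neutrophils), at least 1 Csf1r (the M-CSF receptor of macrophages) and fewer than 3 counts of Mki67 and Top2a, both of dividing cells. Gated cells were called Ly6a+ when they also had Arg1 below 10, Mmp14 below 5 and Ly6a of at least 2. This gave 1955 cells among 2760 gated and 10235 sequenced Mo-MF cells, and the other 805 gated cells were the comparison. Since Ly6a and 8 further genes chose the members, their levels in Mo-MF are given as a description.

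Mo-MF were made by keeping mouse bone marrow monocytes for 7 days in medium conditioned by 4T1.2 cells, a mouse breast cancer line, and were sequenced as 2 replicates. B-MF, macrophage-like cells obtained from bone marrow B cells in the same conditioned medium, gave another 2 replicates. TAM, labelled as macrophages of the tumor tissue, came as sorted cells from mice with 4T1.2 cancer and gave 4 libraries, which the table numbers 2 to 5. Many of these cells went against the label: 1349 of 3180, 1497 of 2318, 1291 of 2387 and 1799 of 3000 cells of libraries 2 to 5 had S100a8 and S100a9 at 50 or more together and carried Csf3r, as neutrophils do, and the gate left them out. The mice were females of 8 to 12 weeks. The study grew 4T1.2 tumors in mice of BALB/c background, without naming the strain for the TAM libraries themselves. The strain behind the sequenced cultures is not given in the sources used here, and Ly6a is known to differ in level between mouse strains, so strain cannot be set aside in comparing the shares of Ly6a+ cells. No untreated monocytes or medium without cancer products were analysed here, so Mo-MF are a culture model in which every cell had the same exposure. The study describes the TAM libraries as coming from 4 mice. Nothing in the labels says whether Mo-MF and B-MF replicates were separate cultures, so p-values there measure only the spread between these libraries, which may be technical.

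Ly6a encodes SCA-1, a small membrane-anchored protein of stem cells and lymphocytes that interferons induce in many cell types. CCL2, CCL7 and CCL12 are ligands of CCR2, the receptor that draws monocytes from blood into inflamed tissue and tumors, and their genes lie close together. Interferon response genes are switched on by factors that bind GAAA repeats in promoters. The remaining genes given as markers of these cells were S100a4, a calcium-binding protein of motile cells, Ms4a4c, a membrane protein of myeloid cells, and Ahsa1, an activator of the chaperone HSP90. In the mouse assembly GRCm38.p6, Ly6a lies at chr15:74994877-74998031, and Ccl2 (chr11:82035577-82037452), Ccl7 (chr11:82045712-82047525) and Ccl12 (chr11:82101845-82103399) are neighbors on chromosome 11. S100a4 (chr3:90603770-90606045) sits beside S100a6 (chr3:90612894-90614414), and Ms4a4c (chr19:11404717-11427246) lies near Ms4a6b (chr19:11518559-11530403). Ahsa1 is at chr12:87266415-87273998.

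Ly6a+ cells made up most of the gated Mo-MF cells in both replicates. They were 944 of 1316 gated cells in replicate 1 (71.7%, exact binomial 95% interval 69.2 to 74.2) and 1011 of 1444 in replicate 2 (70.0%, 67.6 to 72.4), a mean of 70.9% ± 1.22 (SD, n = 2). The same rule found 183 of 2772 gated cells in B-MF replicate 1 (6.60%) and 243 of 3157 in replicate 2 (7.70%). In TAM it found 62 of 939 cells in library 2 (6.60%), 5 of 260 in library 3 (1.92%), 29 of 413 in library 4 (7.02%) and 35 of 450 in library 5 (7.78%). Both Mo-MF replicates lay far above all other libraries, and library 3 was the lowest. The tumor table was normalized separately, so TAM shares are set beside the others without a test. Intervals cover counting error only.

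**Figure D1:**
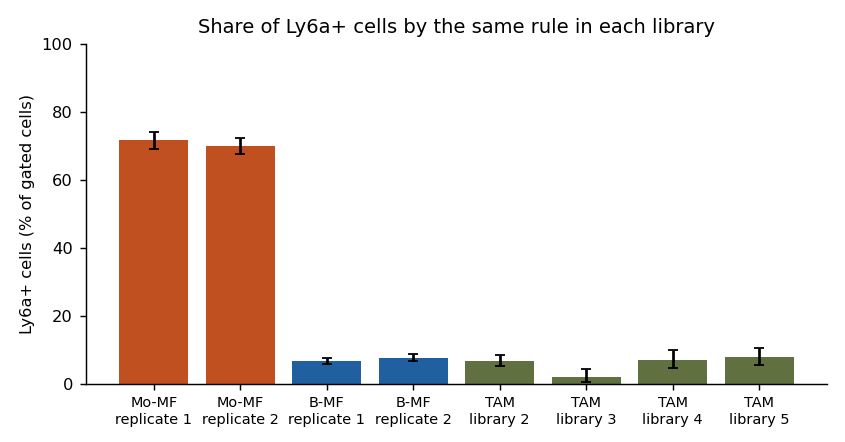
Percentage of gated cells called Ly6a+ in each library, with exact binomial 95% intervals as error bars. The 2 Mo-MF replicates stood at 71.7% and 70.0%, and the other 6 libraries lay between 1.92% and 7.78%.

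Ly6a was not confined to the gate. Among Mo-MF cells that met every other criterion but carried Csf3r, 69.2% in replicate 1 and 68.0% in replicate 2 had at least 2 Ly6a counts. These shares are of 2458 and 2786 cells, more than the 1219 and 1351 without Csf3r. The Csf3r criterion cut Mo-MF from 4341 to 1484 and from 4903 to 1660 cells, and B-MF from 5234 to 3050 and from 5326 to 3441. Csf3r counts of 1 or more were thus not confined to cells high in S100a8 and S100a9, with the limit of a single count given below. The share was 94.1% and 97.4% in otherwise gated cells excluded for Mki67 and Top2a, 68.5% and 81.6% in cells with high Arg1, and 62.5% and 52.9% in the 24 and 17 with high Mmp14. In cells high for S100a8 and S100a9 that carried Csf3r it was 43.9% and 45.8%, with a median of 1 Ly6a count. Those cells also had fewer detected genes (medians 3071 and 3128, against 3984 and 3917 in Ly6a+ cells). At the edge of the rule, 144 and 170 cells had exactly 1 Ly6a count and were left out, while 85 and 87 had exactly 2 and were kept. A corrected count of 1 was a poor sign of detection: in replicate 1, Ccl2 was at 1 or more in 73.6% of cells with 1 Ly6a count and in 20.6% of cells with none, though the mean was lower (2.67 against 4.27) and the median of detected genes was 2764 against 3839. Shares for a single gene are therefore given at 2 counts or more. The Csf3r and Csf1r criteria are set at 1 count, so cells sorted by them carry this limit. Cells with 3 or more markers of a cell type were still counted from 1 count of each, so those shares carry this limit.

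The markers of macrophages were strong in Ly6a+ Mo-MF, while several that the word inflammatory would call for were near 0. Mean corrected counts in replicates 1 and 2 were 463 and 451 for Apoe, 39.2 and 38.0 for Cd68, 7.91 and 8.04 for the mannose receptor Mrc1 and 5.28 and 5.29 for Adgre1, which encodes F4/80. Tnf averaged 0.086 and 0.092, Il1b 0.108 and 0.107, the nitric oxide synthase Nos2 0.001 and 0, and Ly6c2, of inflammatory blood monocytes, 0.028 and 0.042. The monocyte receptor Ccr2 was low as well, at 0.447 and 0.504. Of 14 inflammatory cytokines and enzymes compared with other gated cells, 1 was counted higher and 0 lower, beside 1.35% and 0.543% of all genes. Cd14 was higher in both replicates (log2 differences 0.75 and 0.71), and 5 of 8 CC chemokines were counted higher, as given below. Since these values went both ways, the cells are called Ly6a+ Mo-MF below, with no word for inflammation. All gated cells carried 3 or more macrophage genes, and cells with 3 or more B-cell, T-cell and NK, dendritic, or basophil and mast-cell markers numbered at most 4 in any arm of either replicate. Neutrophil markers, led by Mmp8, were at 3 or more in 18.3% and 14.4% of Ly6a+ cells and in 21.2% and 15.7% of the others, with summed means of 5.43 and 4.83 against 6.19 and 5.87. S100a8, S100a9 and Csf3r are among these markers and were limited by the gate in both arms, so these values are partly set by the rule. Without the cells with 3 neutrophil markers, 151 genes were counted higher in Ly6a+ cells and 46 lower, beside 114 and 46 with them, and 5 of 8 CC chemokines were still higher. No barcode was shared between libraries among members, and 0 to 14 were shared among all cells.

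Within Mo-MF, the chemokine genes of the CCR2 axis were among the largest differences from other gated cells. Ccl2 averaged 11.1 corrected counts in Ly6a+ cells and 3.37 in other cells of replicate 1, and 10.4 against 3.33 in replicate 2, log2 differences of 1.70 and 1.61. Ccl7 averaged 8.67 against 2.70 and 8.99 against 1.43, differences of 1.65 and 2.57. Ccl12 averaged 2.73 against 1.20 and 2.85 against 0.619, differences of 1.12 and 2.04. For all of these genes Ly6a+ cells were above the others in both replicates. Differences here and below are on the log2(mean + 0.1) scale, which understates those of low genes. A gene was counted as different when both replicates passed 0.5 in the same direction, which 114 of 8474 genes did upward (1.35%) and 46 did downward (0.543%). This contrast includes the rule's own choice of cells, so it carries no test and the counts are given as a description only.

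The other markers were higher too. S100a4 averaged 2.05 in Ly6a+ cells against 0.395 in replicate 1 and 1.77 against 0.547 in replicate 2, and S100a6, another small calcium-binding protein, 10.4 against 4.43 and 10.1 against 5.48. Ms4a4c averaged 0.872 against 0.492 and 0.861 against 0.259, and Ahsa1 4.03 against 2.18 and 3.99 against 2.39. The mean of each of the 5 given markers other than Ly6a was thus higher in both replicates. Ms4a4c was the least abundant and, in replicate 1, not higher at low Ly6a counts, as given below. The median difference over all genes was 0.10, so small positive values carry little. With each cell scaled to 10000 counts the median was 0.07, and 52 genes were counted higher and 38 lower, a more even split than 114 to 46.

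Of the CC chemokine list, 5 of 8 genes compared were counted higher and none lower, with a median difference of 0.96. The remaining members counted higher were Ccl4 (7.63 against 4.08 and 8.74 against 3.08) and Ccl3 (3.18 against 2.19 and 3.24 against 1.62). Ccl8, Ccl9 and Ccl6 were not counted (Ccl8 passed in replicate 1 alone), though Ccl6 was abundant in both arms (29.6 against 32.1 and 29.9 against 30.3). In the Ms4a family 4 of 7 were counted higher: besides Ms4a4c, these were Ms4a7 (27.4 against 16.4 and 27.3 against 17.3), Ms4a6b (2.54 against 1.52 and 2.47 against 1.35) and Ms4a6c (6.20 against 4.18 and 6.32 against 4.02). Of 19 chaperones and HSP90 partners compared, Ahsa1 was the 1 counted.

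Type I interferon response genes leaned the same way with smaller differences. Of 41 compared, 6 were counted higher and none lower, beside 1.35% and 0.543% of all genes. While 41 of 41 lay above 0, so did 18 of 19 chaperones and HSP90 partners. The median was 0.38 beside 0.10 for all genes, and the lean was not tested. Ifi27l2a, a mitochondrial protein induced by interferon, averaged 65.5 against 29.5 and 68.5 against 29.3. Ifit3, which binds viral RNA with its relatives, averaged 0.868 against 0.452 and 0.978 against 0.376, and Isg15, a ubiquitin-like modifier, 2.32 against 1.59 and 2.33 against 1.25. Bst2, Ifit1 and Oas3 were the other 3 counted. With scaled cells 3 of 40 were counted.

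Promoters of these genes were read from RefSeq on GRCm38.p6, over the 250 bases before the start, to show the interferon element. The core GAAANNGAA, on either strand, occurred in 7.13% of 32851 promoters and in 8.18% of 27025 genes. It was present in 18 of the 33 type I interferon list genes that had an entry, in 3 of 11 Ms4a genes, in 1 of 7 CC chemokine genes and in none of the 3 given markers with an entry (S100a4, Ms4a4c and Ahsa1). Ly6a, Ccl2 and Ccl7 are placed on the assembly, as given above, but had no entry in the promoter set used, so their promoters were not searched. The core GGGNNTTCC, of NF-kB sites, was in 4 of the 33 interferon genes, in 4.98% of all promoters and in none of the 3 markers. The following 30-base stretches are shown because they hold GAAANNGAA, in capitals, on the strand shown (Isg15, Ms4a6b) or on the opposite one (Rsad2), and each is written 5′ to 3′ on the strand of its gene:
Isg15 (chr4:156200871-156200900, minus strand): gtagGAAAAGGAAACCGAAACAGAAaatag
Rsad2 (chr12:26456546-26456575, minus strand): aactTTCATTTTCagaaaacagaaactctg
Ms4a6b (chr19:11518349-11518378, plus strand): tcaaGAAAGTGAActtgggcattgcatgca

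In Isg15 the capitals cover 3 overlapping matches, the first starting 78 bases before the gene, whereas the matches of Rsad2 and Ms4a6b start 119 and 206 bases before theirs. These are matches of letters, not measured sites.

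Among genes lower in Ly6a+ Mo-MF were Mmp12, Mgll, Sdc1 and Fn1. Other cells of replicates 1 and 2 included 73 and 76 with high Arg1 and 24 and 17 with high Mmp14. The rule bars these from Ly6a+ cells, and their part in the differences was not tested. Mmp12, the macrophage elastase, averaged 25.1 against 39.0 in replicate 1 and 24.9 against 41.7 in replicate 2. Mgll, which releases fatty acids from monoacylglycerol, averaged 0.911 against 2.65 and 0.852 against 2.28, and Sdc1, the proteoglycan syndecan 1, 0.353 against 1.07 and 0.346 against 1.03. Fn1, the matrix protein fibronectin, averaged 1.89 against 4.12 and 2.49 against 4.38. Of 12 matrix protease genes compared, 2 were counted lower, Mmp12 and Mmp19, and Cd274, the checkpoint ligand PD-L1, was also lower (1.59 against 2.79 and 1.73 against 2.81). Of 13 genes encoded in mitochondrial DNA, none was counted, and the median difference was -0.22.

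The macrophage list had a median difference of 0.12, beside 0.10 for all genes. Of its 22 genes 1, C1qa of complement, was counted higher (15.4 against 9.97 and 14.9 against 7.57), beside 1.35% of all genes. Cd5l, a macrophage scavenger protein outside the lists, was counted higher too (0.620 against 0.124 and 0.597 against 0.090). The cycle list had 4 of 8 genes counted higher, and the gate had removed only cells with 3 or more counts of Mki67 and Top2a. Among them Stmn1 averaged 0.954 against 0.411 and 1.14 against 0.496, and the replication gene Mcm6 0.372 against 0.134 and 0.419 against 0.122. Their part in the other differences was not tested. Mitochondrial transcripts made up 4.78% and 5.33% of counts in Ly6a+ cells against 6.28% and 5.56% in the others, and medians of detected genes were 3984 and 3917 against 3604 and 3555.

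The basophil proteases Prss34 and Mcpt8 were lower on average (mean log2 differences -2.78 and -2.07), on the strength of very few cells. Prss34 was at 2 or more in 0.212% of Ly6a+ cells of replicate 1, with a highest value of 1058 counts, and in 1.08% of the others. Without cells holding 3 T-cell and NK, B-cell, dendritic, basophil and mast-cell, or stromal markers, 126 genes were counted higher and 46 lower, neutrophil markers being no part of this removal.

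Mean Ccl2, Ccl7 and Ccl12 were highest in cells with 15 Ly6a counts or more. From 0 to 3 counts none rose steadily, apart from Ccl7 in replicate 2 (0.859, 1.87, 1.95 and 3.61). In replicate 1 mean Ccl2 was 4.27, 2.67, 2.08 and 1.63 at 0, 1, 2 and 3 Ly6a counts, then 8.08 at 5 to 14, and in replicate 2 it was 2.02, 4.73, 3.55 and 3.75, then 6.56. From cells without Ly6a to those with 30 counts or more, mean Ccl2 went from 4.27 to 21.3 in replicate 1 and from 2.02 to 15.7 in replicate 2. Ccl7 went from 3.24 to 17.9 and from 0.859 to 14.2, and Ccl12 from 1.04 to 5.97 and from 0.388 to 6.82. S100a4 went from 0.351 to 4.46 and from 0.388 to 3.21, Ahsa1 from 2.11 to 5.53 and from 1.97 to 5.47, and Isg15 from 1.41 to 3.84 and from 1.25 to 3.55. Mmp12 went the other way, from 41.1 to 18.1 and from 44.7 to 14.5. Ms4a4c in replicate 1 averaged 0.618 without Ly6a, 0.305 at 2 to 4 counts and 0.595 at 5 to 14. It stood above its value without Ly6a only at 15 to 29 (0.858) and at 30 or more (1.98). In replicate 2 it went from 0.253 to 0.491, 0.570, 0.920 and 1.80 over the same bins. Ccl2 and Ccl7 were higher at 15 to 29 counts than at 30 or more in replicate 2 (16.7 against 15.7 for Ccl2 and 15.7 against 14.2 for Ccl7). Median detected genes were 3839 and 3720 at 0 counts and 4158 and 4060 at 30 or more, and their part in the trend was not tested.

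**Figure D2:**
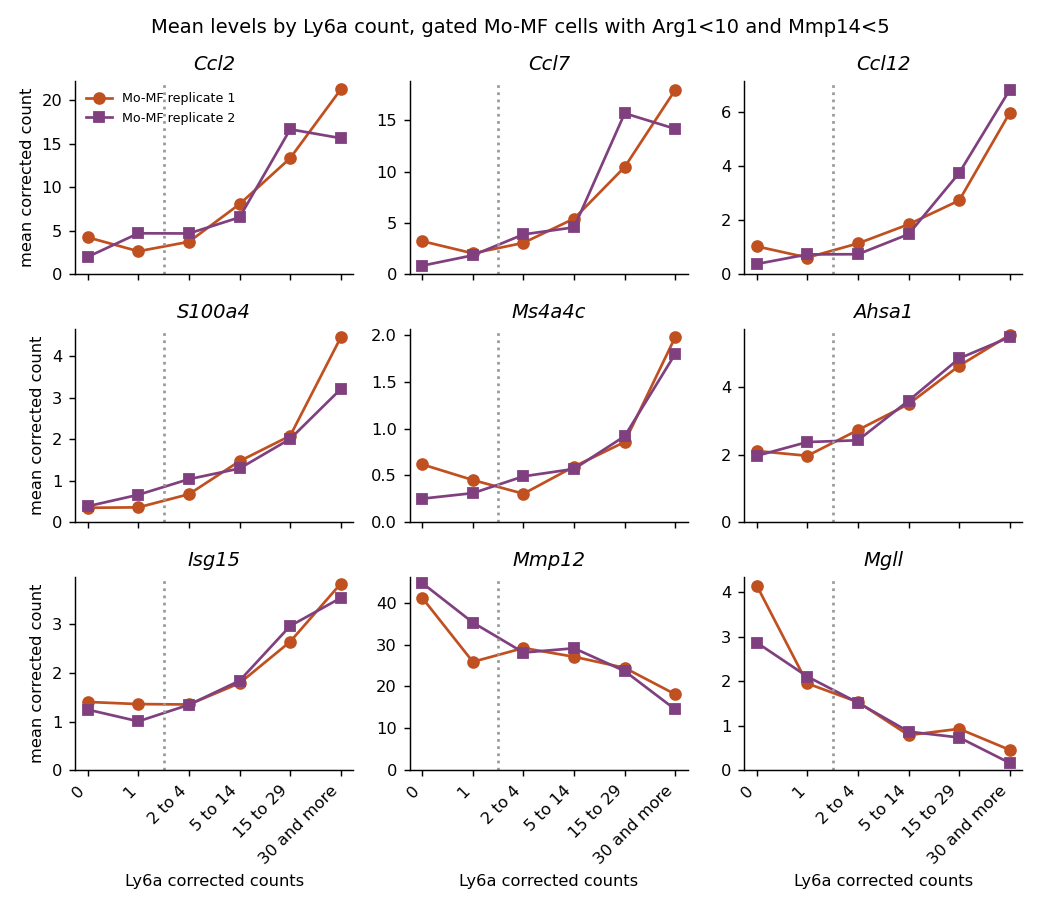
Mean corrected count of 9 genes by the Ly6a count of the cell (bins on the horizontal axis, dotted line at the threshold), in gated Mo-MF cells with low Arg1 and Mmp14, a point and line for each replicate. Ccl12, S100a4, Ms4a4c, Ahsa1 and Isg15 are highest in the last bin in both replicates, Ccl2 and Ccl7 in the last bin of replicate 1 and the one before it in replicate 2, and Mmp12 and Mgll are lowest in the last bin.

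Among members the chemokine transcripts were concentrated in a minority of cells. Ccl2 was at 2 counts or more in 38.9% of Ly6a+ cells of replicate 1 and 38.6% of replicate 2, Ccl7 in 31.3% and 31.6%, and both together in 27.8% and 27.6%. The 10% of cells richest in Ccl2 held 72.6% and 72.5% of its counts, whereas the 10% richest in Ly6a held 32.5% and 31.7% of Ly6a. Across members Ccl2 and Ccl7 had Spearman's rho of 0.760 (944 cells) and 0.773 (1011 cells), Ccl2 and Ccl12 0.447 and 0.484, and Ccl2 and Ly6a 0.235 and 0.212. Ly6a went with Ifi27l2a at 0.399 and 0.391. These correlations describe cells of shared libraries and are not tests. S100a4 was at 2 or more in 29.03% and 27.7% of members and Ms4a4c in 15.5% and 16.4%, so no marker other than Ly6a and Ahsa1 (66.7% and 66.3%) was present in most of them.

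Whether the same differences held outside Mo-MF was tested in libraries that the rule had not used. In B-MF, 27 of 39 type I interferon and 5 of 8 MHC class II genes rose in Ly6a+ cells, as did Ccl7 and S100a4. Ccl7 averaged 11.3 in Ly6a+ against 6.11 in other cells of replicate 1 and 9.56 against 5.73 in replicate 2, a log2 difference of 0.80 (SE 0.08, limma adjusted p = 0.020). S100a4 averaged 2.33 against 1.25 and 1.70 against 0.971, a difference of 0.80 (SE 0.07, adjusted p = 0.020). For both genes, Ly6a+ cells were above the others in each replicate. Among 8383 genes tested, 128 passed an adjusted p of 0.05 upward (1.53%) and 97 downward (1.16%), and 1627 had an unadjusted p below 0.05.

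The 3 remaining markers did not pass in B-MF. Ccl2 averaged 15.3 against 9.64 and 11.8 against 8.93 (difference 0.53, SE 0.09, adjusted p = 0.058, or 0.027 with cells scaled to 10000 counts), and Ms4a4c 0.186 against 0.076 and 0.329 against 0.060 (1.06, SE 0.17, adjusted p = 0.0503, just over the threshold). Ahsa1 averaged 1.78 against 1.82 and 2.07 against 1.80, a difference of 0.08 (SE 0.09, adjusted p = 0.66). Of 10 CC chemokines, Ccl7, Ccl8 and Ccl12 rose and Ccl24 fell, though Ccl12 did not pass without cells with 3 neutrophil markers (0.72, adjusted p = 0.053), where Ms4a4c did (0.91, adjusted p = 0.047). Ms4a4c was below the filter of 0.1 in other B-MF cells and entered the fit only through Ly6a+ cells. Its p-values in B-MF are therefore no support. Of 8 CXC chemokines 5 rose, among them Pf4 (251 against 139 and 224 against 137) and Cxcl2.

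Type I interferon genes were the largest group to pass in B-MF, with 27 of 39 rising, none falling and a median difference of 0.60. Ifit3 rose by 1.52 (SE 0.12, adjusted p = 0.017), Irf7, a factor that amplifies interferon production, by 1.21 (SE 0.07, adjusted p = 0.012) and Isg15 by 1.15 (SE 0.10, adjusted p = 0.017). Ifitm1, a membrane protein that limits virus entry and a gene outside the lists, rose from 1.84 to 12.1 and from 1.77 to 8.19 (2.40, SE 0.13, adjusted p = 0.010). Ms4a6b, whose promoter stretch is printed above, rose by 0.86 (SE 0.07, adjusted p = 0.017). Of 13 interferon-gamma genes 5 rose.

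MHC class I presentation genes did not pass (0 of 17, median 0.26), but 3 of 16 passed as higher with cells scaled to 10000 counts. MHC class II genes rose in 5 of 8 cases, led by the invariant chain Cd74 (11.9 against 2.70 and 9.36 against 2.96, difference 1.87) and H2-Ab1 (2.72 against 0.636 and 2.29 against 0.734, difference 1.73). Mmp12 fell by 1.65 (6.27 against 24.1 and 8.46 against 22.2), as did Fn1 by 1.45 and the scavenger receptor Cd36 by 1.25, all with adjusted p between 0.011 and 0.026. The 8 dendritic markers in the table summed to 8.86 and 9.31 in Ly6a+ cells against 6.999 and 6.73, of which Bst2, itself an interferon gene, was 8.58 and 9.14 against 6.88 and 6.63, and at most 3 B-MF cells in any arm had 3 or more of them. Median detected genes were 3712 and 3215 against 3908 and 3413. Removing cells with 3 markers of another type, neutrophils not included, left 127 genes higher and 99 lower. Removing those with 3 neutrophil markers, 1 Ly6a+ and 1 other cell of replicate 2, left 85 and 57, with 18 of 39 type I interferon genes and 4 of 7 MHC class II genes higher. The calls depended on the constant added before the log: with 0.01 in place of 0.1, 1 gene rose and 0 fell at 1509 unadjusted p below 0.05. No test was possible without either B-MF replicate, since no residual degrees of freedom remained.

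In TAM, 14 of 41 type I interferon, 7 of 11 MHC class II and 12 of 17 MHC class I genes rose in Ly6a+ cells, beside 2.56% of all genes tested. Most of the type I interferon and MHC class I calls were lost without library 2 or 5. Ccl2 and S100a4 fell. The fit used libraries 2, 4 and 5, with 62, 29 and 35 Ly6a+ cells. Ccl2 averaged 0.452 in Ly6a+ against 1.25 in other cells of library 2, 0.793 against 1.24 in library 4 and 0.086 against 0.959 in library 5 (log2 difference -1.46, SE 0.33, limma adjusted p = 0.049). S100a4 averaged 4.32 against 7.31, 6.72 against 10.2 and 5.89 against 9.61 (-0.68, SE 0.15, adjusted p = 0.049). Both were lower in Ly6a+ cells of all 3 libraries, which is the opposite direction to Mo-MF. The call of Ccl2 was lost without library 2 (-1.55, adjusted p = 0.17) or library 5 (-0.94, adjusted p = 0.12), and that of S100a4 without any of libraries 2, 4 and 5 (adjusted p = 0.26, 0.12 and 0.14). With cells scaled to 10000 counts neither passed (Ccl2 -1.52, adjusted p = 0.061; S100a4 -0.68, adjusted p = 0.069).

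Ms4a4c was the marker that rose in TAM as it stood higher in Mo-MF. It averaged 7.10 against 2.88, 5.41 against 2.88 and 5.69 against 3.03, a difference of 1.02 (SE 0.17, adjusted p = 0.020). Without library 2 or 5 its adjusted p was 0.13 and 0.073. Ccl7 averaged 0.645 against 0.818, 0.310 against 0.378 and 0 against 0.292 (-0.83, SE 0.33, adjusted p = 0.22), and Ahsa1 did not pass either (0.08, SE 0.18, adjusted p = 0.85).

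**Figure D3:**
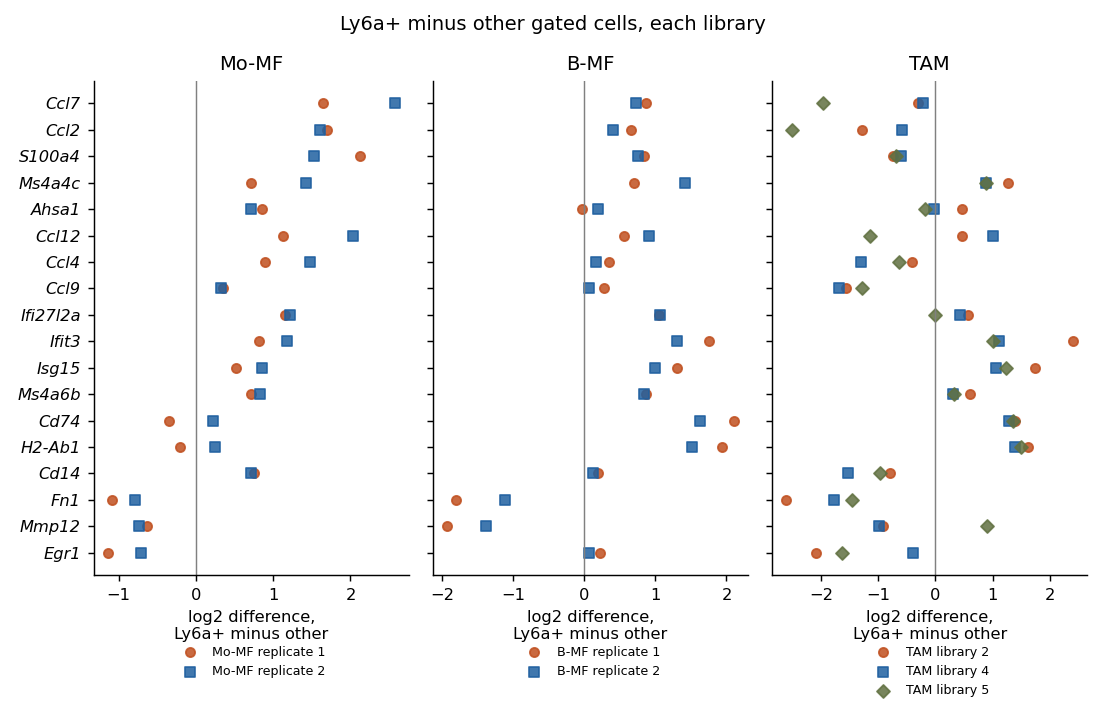
Log2 difference (Ly6a+ minus other gated cells) of 18 genes in each Mo-MF, B-MF and TAM library, a point for each library and a line at 0; the 3 horizontal axes differ in range. Ccl7, Ccl2 and S100a4 lie right of 0 in Mo-MF and B-MF and left of it in TAM, Ms4a4c, Isg15 and Ms4a6b lie right of 0 throughout, and Cd74 and H2-Ab1 lie right of 0 in B-MF and TAM but on both sides of it in Mo-MF.

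Among 6634 genes tested in TAM, 170 rose (2.56%) and 189 fell (2.85%), and 1363 had an unadjusted p below 0.05. With 0.01 added before the log, 8 rose and 6 fell. The counts leaned on each library: they were 34 and 28 without library 2, 76 and 70 without library 4, and 44 and 33 without library 5. Of the 359 genes called, 355, 355 and 356 kept their direction. MHC class II genes rose in 7 of 11 cases, with H2-Ab1 at 41.2 against 13.4, 39.6 against 14.95 and 45.6 against 16.1 (1.504, SE 0.15, adjusted p = 0.0049), and 5 of the list still passed without any single library. MHC class I presentation genes rose in 12 of 17 cases, but 0, 2 and 0 passed without library 2, 4 and 5. Of 41 type I interferon genes 14 rose, among them Isg15 by 1.35 (SE 0.18, adjusted p = 0.013) and Ifit3 by 1.51, and 1, 10 and 1 passed without library 2, 4 and 5, Isg15 having an adjusted p of 0.079 and 0.059 and Ifit3 of 0.089 and 0.073 without library 2 and 5. Of 24 interferon-gamma genes 12 rose, for example the GTPase gene Iigp1 by 2.23 (SE 0.20, adjusted p = 0.0028), and 2, 5 and 3 passed without those libraries.

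Of 12 matrix protease genes 4 fell, and 3, 5 and 2 passed without library 2, 4 and 5. The other arm of these libraries held 112, 39 and 29 cells with high Arg1 and 75, 41 and 25 with high Mmp14. The rule bars such cells from the Ly6a+ arm, so part of a protease difference may be set by the rule, which was not tested. Against cells low in both genes alone, 169 genes rose and 162 fell over all genes. Ctsk, the collagen-cutting cathepsin K, averaged 0.032 against 3.95, 0.034 against 5.13 and 0 against 2.67, and Mmp9, a gelatinase, 0.145 against 2.81, 0.172 against 2.82 and 0 against 1.17 (adjusted p = 3.57e-05 and 8.08e-05). Fn1 fell by 1.95 (SE 0.23, adjusted p = 0.0074). Of 21 macrophage genes 7 fell, among them Apoe by 1.24 (adjusted p = 0.059 and 0.064 without library 2 and 5), and 1, 4 and 0 passed without library 2, 4 and 5. Of 13 monocyte genes 6 fell, and 3, 5 and 3 passed without those libraries. Of 10 CC chemokines Ccl2, Ccl6 and Ccl9 fell and Ccl5 rose by 2.09 (SE 0.19, adjusted p = 0.0028). Ccl6 did not pass without library 2 or 4 (adjusted p = 0.22 and 0.12). Of 8 CXC chemokines Cxcl1, Cxcl2, Cxcl3 and Pf4 fell, and Cxcl9 and Cxcl16 rose, by 1.88 and 1.24. Cxcl9 did not pass without library 2 or 4 (adjusted p = 0.079 and 0.056), Cxcl16 without library 2 or 5, and Cxcl2 without any of the 3.

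Summed dendritic and stem or progenitor markers were higher in Ly6a+ TAM cells of libraries 2, 4 and 5, and T-cell and NK markers in libraries 4 and 5 only. The summed mean of the 11 dendritic markers was 4.87, 5.62 and 5.14 in Ly6a+ cells of libraries 2, 4 and 5 against 1.65, 1.58 and 1.27 in the others, with 2 to 3 of them at 0 in the Ly6a+ cells. Bst2, itself an interferon gene, made up 3.53 of the sum in library 2, and Ccr7 led in libraries 4 and 5 (3.03 and 2.66). Cells with 3 or more of these markers were 6 of 62, 5 of 29 and 4 of 35, against 9 of 877, 8 of 384 and 2 of 415. T-cell and NK markers, led by Il7r, summed to 1.81, 4.03 and 3.34 against 2.03, 1.77 and 2.21, and 0 of 4 compared passed. Stem and progenitor markers summed to 0.258, 0.483 and 0.686 against 0.131, 0.216 and 0.190, with Cd34 at 0 in the Ly6a+ cells of libraries 2 and 4. Their leading gene Kit, a receptor of progenitors and mast cells, averaged 0.194 against 0.027, 0.207 against 0.031 and 0.371 against 0.005. Its difference was 1.53 (limma adjusted p = 0.015, or 0.058 and 0.054 without library 2 and 5). Its means in other cells were all below the filter of 0.1, so it was tested only through its level in Ly6a+ cells. The p-value of Kit is therefore no support for a rise. Without cells with 3 markers of another type, neutrophils not included, 97 genes rose and 95 fell, 5 of 10 MHC class II, 7 of 17 MHC class I and 8 of 41 type I interferon genes rose, 2 of 22 macrophage genes fell, and H2-Ab1 (1.52) and Ms4a4c (1.04) were as large as before. In that fit Kit (1.23, adjusted p = 0.066), Retnlg (1.33, adjusted p = 0.29), Ccl5 (0.62, adjusted p = 0.57), Ccl2 (-1.38, adjusted p = 0.075) and S100a4 (-0.78, adjusted p = 0.0505) did not pass, and Ccr7, a receptor of migrating dendritic cells, went from 2.64 to -0.53. Neutrophil markers were at 3 or more in 6 of 62, 6 of 29 and 4 of 35 Ly6a+ cells, and in 96 of 877, 76 of 384 and 101 of 415 others. These markers again include S100a8, S100a9 and Csf3r, which the gate limits. The neutrophil gene Retnlg, 1 of 3 neutrophil markers compared, rose (0.935 against 0.267, 1.41 against 0.102 and 0.714 against 0.176, difference 1.99, adjusted p = 0.014, or 0.054 without library 5). Without the cells with 3 neutrophil markers 161 genes rose and 209 fell, with 8 of 11 MHC class II and 14 of 41 type I interferon genes rising and 7 of 13 matrix proteases falling. Ccl2 (-1.36, adjusted p = 0.081), S100a4 (-0.71, adjusted p = 0.058), Ccl6 (-1.24, adjusted p = 0.051), Ccl5 (1.39, adjusted p = 0.087) and Retnlg (1.65, adjusted p = 0.10) did not pass there, and Ccl7 passed as lower (-1.56, adjusted p = 0.011).

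Finally, Ly6a+ Mo-MF were compared with Ly6a+ B-MF to ask how much cells of the same rule shared across origins. Neither Ccl2, Ccl7 nor S100a4 passed the test, and Ms4a4c and Ahsa1 were higher in Mo-MF. Ccl7 averaged 8.67 and 8.99 in Mo-MF against 11.3 and 9.56 in B-MF, a log2 difference of -0.23 (SE 0.10, limma adjusted p = 0.15). Ccl2 averaged 11.1 and 10.4 against 15.3 and 11.8 (-0.32, SE 0.13, adjusted p = 0.14), and S100a4 2.05 and 1.77 against 2.33 and 1.70 (-0.07, SE 0.16, adjusted p = 0.79). With cells scaled to 10000 counts Ccl7 passed as lower in Mo-MF (-0.27, adjusted p = 0.0497). These values do not show that the levels are equal. Ms4a4c averaged 0.872 and 0.861 against 0.186 and 0.329 (1.46, SE 0.19, adjusted p = 0.0065), and Ahsa1 4.03 and 3.99 against 1.78 and 2.07 (1.03, SE 0.09, adjusted p = 0.0018). For the last pair the Mo-MF replicates lay above both B-MF replicates. These genes are all given markers of Ly6a+ Mo-MF, so their adjusted p-values are no independent support. The rule also kept 71.7% and 70.0% of gated Mo-MF cells but 6.60% and 7.70% of gated B-MF cells.

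Of 8511 genes tested between origins, 1108 were higher in Mo-MF (13%) and 843 lower (9.9%), with 3285 at an unadjusted p below 0.05. Only Ly6a+ cells entered this test, so differences of these cells cannot be told apart from differences between the whole cultures. With cells scaled to 10000 counts the split turned, to 911 higher and 1184 lower. Without Mo-MF replicate 1 or 2 the counts were 249 and 257 or 267 and 257, and without B-MF replicate 1 or 2 they were 2888 and 1544 or 2158 and 2119, the lone library being assumed to vary like the rest.

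Inflammatory and immediate-early genes were lower in Ly6a+ Mo-MF. Il1b averaged 0.108 and 0.107 against 2.14 and 1.70 in B-MF (-3.27, SE 0.11, adjusted p = 0.00028), and Egr1, an immediate-early factor, 0.450 and 0.408 against 8.40 and 7.15 (-3.89, SE 0.10, adjusted p = 0.00016). Of 17 inflammatory cytokines and enzymes 12 were lower and 1, Il1rn, which blocks the interleukin 1 receptor, was higher (1.55 and 1.72 against 0.262 and 0.444). Of 15 immediate-early genes 12 were lower. Of 7 CXC chemokines 5 were lower and 1 higher, Pf4 among those lower at 44.7 and 37.3 against 251 and 224. MHC class II genes were lower in 5 of 8 cases and higher in 1, with Cd74 lower at 1.91 and 1.83 against 11.9 and 9.36. Mitochondrially encoded genes were lower in 11 of 13 cases, but in 0 and 2 without Mo-MF replicate 1 and 2. The regulator Id3 differed most among genes lower (0.041 and 0.048 against 3.75 and 3.09).

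Of 13 antioxidant genes 10 were higher in Ly6a+ Mo-MF, but 2 and 3 without Mo-MF replicate 1 and 2, and of 12 matrix protease genes 6 were higher and 1 lower. Apoe, which carries lipids, averaged 463 and 451 against 135 and 130 (1.79, SE 0.07, adjusted p = 0.00029), and Mfge8, a bridge for the uptake of dying cells, 7.15 and 8.502 against 0.798 and 0.905. In the other gated Mo-MF cells Apoe was higher still (551 and 538), so its difference was not particular to Ly6a+ cells. Bex1 had the highest difference named (3.77 and 3.59 against 0.022 and 0.066, 4.73, SE 0.15), followed by Fn1 (3.58), Mfge8 (3.06) and Mgll (3.03). Ccr2 was higher too (1.71, SE 0.19, adjusted p = 0.0042), and of 10 CC chemokines Ccl8 was higher (30.6 and 27.1 against 9.38 and 11.7) and 5 were lower, but 2 and 3 without Mo-MF replicate 1 and 2. Of 41 type I interferon genes 12 were higher and 2 lower, and 3 and 4 were higher without Mo-MF replicate 1 and 2.

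**Figure D4:**
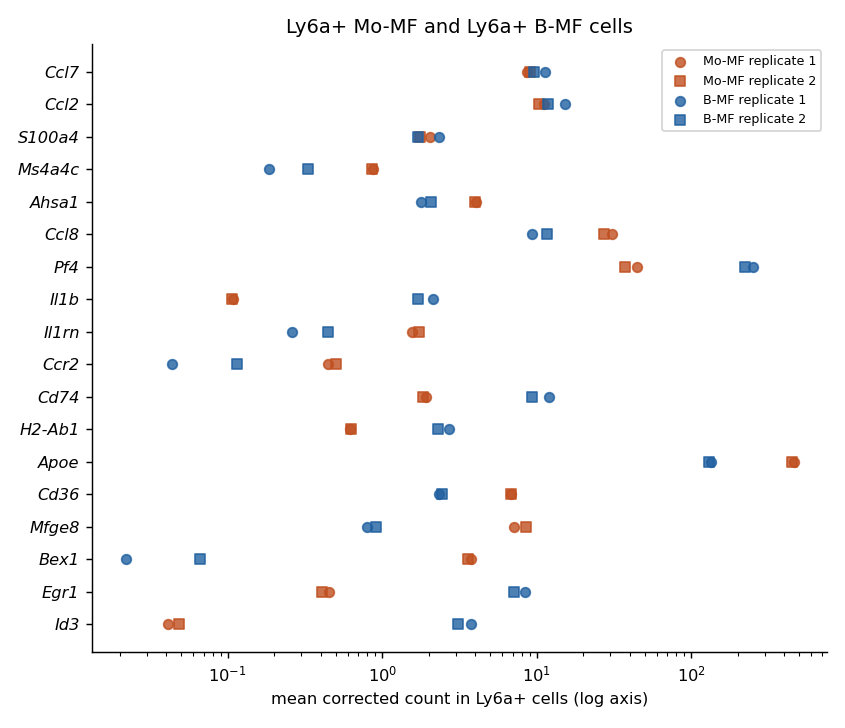
Mean corrected count (log axis) of 18 genes in Ly6a+ cells of each Mo-MF and B-MF replicate. Points of the 2 origins lie close for Ccl7 and Ccl2 and overlap for S100a4, while Bex1, Mfge8 and Apoe lie higher in Mo-MF and Egr1, Id3, Il1b, Pf4 and Cd74 lie higher in B-MF.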

How the data were processed

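Single-cell RNA-seq of 2 Mo-MF, 2 B-MF and 4 TAM libraries was used. The authors aligned reads to mm10 with Cell Ranger, kept cells with at least 1000 detected genes and normalized in Seurat with SCTransform. The deposited values are the natural log of 1 plus the corrected count, in a table for the cultures and another for the tumors. All values above 0 turned whole after exponentiation (relative tolerance 1e-06), and these corrected counts were used. They hold the effect of depth out, so per-library sequencing depth is unknown, medians per arm being 18200 to 19590 corrected counts in cultures and 8246 to 8604 in tumors. The tumor columns name 4 libraries of the group but not which titled replicate. The deposited chromatin peak lists were not used here.

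For each library and arm, means of corrected counts were taken, log2(mean + 0.1) was computed, and genes with a mean of at least 0.1 were fitted in limma 3.58.1 (R 4.3.3; lmFit, eBayes, two-sided, Benjamini-Hochberg over all genes tested), with library as covariate within TAM and B-MF and none between origins. Arms had at least 10 cells. The filter used the mean over all arms of a fit, so a gene near 0 in 1 arm could enter through the other. Mo-MF Ly6a+ and other cells were not tested. The 9 rule genes stayed in the fits and are not read as results. No doublet caller was run. Fits were tested on simulated data. Tables were handled with Python 3.11.15, pandas 2.3.3, numpy 2.4.6 and scipy 1.17.1.

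Members, gene lists and tests were chosen with earlier results of these data known, so a marker's direction in Mo-MF is no independent support. Genes named were the rule genes and given markers, up to 4 per list by size, and the 5 largest differences in each direction with a mean of at least 0.5 in an arm of every library. List members outside these, the genes plotted, the genes checked for opposite directions, and the promoters printed (picked for holding the motif) were chosen after values were seen, as were the list counts under other settings, and 3 promoter motifs were searched in all, of which 1 is not reported here. Counts of genes called in a list leave out rule genes. Summed marker means, and cells with 3 or more markers, keep them.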

Additional observations from a re-analysis of the deposited data

Results flagged for a closer look

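A total of 5 genes pointed in opposite directions between Ly6a+ and other cells in every library of Mo-MF (replicates 1 and 2) and of TAM (libraries 2, 4 and 5), among the given markers and CC chemokines that were checked. The difference between the 2 settings was not tested, and the tables were normalized separately. Ccl7 had a mean log2 difference of 2.11 in Mo-MF and -0.83 in TAM, and Ccl2 had 1.65 and -1.46. S100a4 had 1.82 and -0.68. Ccl4 had 1.18 and -0.78, and Ccl9, a ligand of CCR1, had 0.34 and -1.51. TAM values of Ccl7 and Ccl4 did not pass the limma test (adjusted p = 0.22 and 0.079).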

How the results depend on the processing

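The share of Ly6a+ cells (70.9%) was 82.2% with Ly6a of at least 1, 64.6% with at least 3, 75.8% without the Arg1 and Mmp14 criteria, 62.5% with cells thinned to 10000 counts, 65.2% with no Csf3r criterion, and 70.0% to 71.7% with 1 replicate left out. The Csf3r setting, the removal of cells with 3 markers of another type (T and NK, B, dendritic, basophil and mast, or stromal cells, not neutrophils) and that of cells with 3 neutrophil markers were chosen after seeing the data. In Mo-MF, 114 genes were counted higher and 46 lower. With a pseudocount of 0.01, 265 were higher, and with 1, 27 and 10. A mean of at least 0.5 gave 59 higher, Ly6a of at least 1 gave 62, scaling gave 52, comparison with Ly6a-low cells alone gave 190, and no Csf3r criterion gave 74 and 27. The strictest removal dropped a cell for 1 count of any marker of another type. Of these, the T-cell and NK marker Il7r averaged 5.07 and 5.20 in Ly6a+ Mo-MF and 6.9 and 7.22 in the others. Cells dropped this way are thus not shown to be of another type. Removing every cell with a marker of another type gave 994 and 105 with only 12 and 15 comparison cells left, and 1 replicate alone gave 229 to 240 and 61 to 86. In TAM (170 and 189), a pseudocount of 0.01 gave 8 and 6, 1 gave 287 lower, no filter gave 0 and 0 in limma with 2205 of 14619 genes at an unadjusted p below 0.05, Ly6a of at least 1 gave 112 and 78, removal of cells with 3 markers gave 97 and 95, and leaving out a library gave 34 to 76 and 28 to 70. In B-MF (128 and 97), a pseudocount of 0.01 gave 1 and 0, 1 gave 395 and 302, no filter gave 0 and 0 with 2296 of 15308 at an unadjusted p below 0.05, a mean of at least 0.5 gave 253 and 202, Ly6a of at least 1 gave 205 and 933, no Csf3r criterion gave 260 and 188, removal of 2 cells with 3 neutrophil markers gave 85 and 57, and no cell with a marker of another type gave 1 and 0 with 528 at an unadjusted p below 0.05. Between origins (1108 and 843), a mean of at least 0.5 gave 652 higher, Ly6a of at least 1 gave 2446 higher, no cell with a marker of another type gave 28 and 20, and leaving out a replicate gave 249 to 2888 and 257 to 2119. Directions reversed without any cell with a marker of another type for C1qa (-1.03), Stmn1 (-0.61) and Birc5 (-0.55) in Mo-MF, Cxcl5 (-0.016) and Ms4a4a (-0.060) in B-MF, and Ccl4 (0.0076), Ms4a6c (0.30), Ccl7 (1.11), Ccl2 (1.05) and S100a4 (0.48) between origins. With Ly6a of at least 1 they reversed for Prss34 (3.91) and Mcpt8 (2.27) in Mo-MF, Ahsa1 in TAM (-0.15), Ccl2 (-0.032) and Ahsa1 (-0.091) in B-MF, and Ccl7 (0.20), Ccl2 (0.054) and S100a4 (0.44) between origins. Ccr2 reversed with no Csf3r criterion in Mo-MF (-0.29), and Ccr7 without cells with 3 markers in TAM (-0.53). Leaving out a library moved Ahsa1 from -0.11 to 0.22 in TAM and from -0.033 to 0.19 in B-MF, and S100a4 from -0.28 to 0.15 between origins, with 0.037 without Mo-MF replicate 2. The cause was not tested. With no replicate block, 162 and 147 genes passed in TAM and 113 and 86 in B-MF, and with the replicate block 1133 and 800 between origins, whose numbered pairs had a correlation of deviations of 0.047 over 2 pairs and so share only a number. In TAM the removal of every cell with a marker of another type could not be fitted, since library 2 alone kept 10 cells in both arms. Sequencing depth is unknown, and 29 to 62 Ly6a+ cells a library limit the precision in TAM.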
